A study of Mus musculus with 12 samples.

Results

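The genes described here were 40 antioxidant, NRF2 pathway and iron handling genes, measured in mouse bone marrow-derived macrophages (BMDMs). They were listed by name, with earlier results of these data known. All 40 matched 1 gene each among the 54232 genes of the count table. All 40 also held at least 10 counts in at least 2 libraries, as did 16281 genes in all. By function they fell into 4 regulators, 12 glutathione and thioredoxin genes, 4 genes of NADPH supply, 6 genes that act on quinones, superoxide and peroxide, 12 iron and heme genes, and 2 metallothioneins.

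The study asked how medium conditioned by neuroblastoma cells changes macrophages, and what the Syk inhibitor R788 does to that change. BMDMs of wild-type C57BL/6 mice, 6 to 8 weeks old by the study's methods and of no stated sex, were used after 5 days of culture, which by the methods was in medium with serum and macrophage colony-stimulating factor. There were 6 groups with 2 libraries each. The NS libraries (SJ1 and SJ2) received neither tumor-conditioned medium (TCM) nor R788, and the R788 libraries (SJ7 and SJ8) received 500 nM R788 for 24 h. NB9464 TCM (SJ3 and SJ4) and NBT3L TCM (SJ5 and SJ6) were given for 24 h, and both were also given with 500 nM R788 (SJ9 and SJ10 with NB9464 TCM, SJ11 and SJ12 with NBT3L TCM). NB9464 is a mouse neuroblastoma line with amplified MYCN, and NBT3L is, by the labels, a line without the amplification. Each TCM came from 1 cell line. NB9464 TCM was collected after 48 h in medium without serum, whereas the making of NBT3L TCM, the medium of NS cells and the vehicle of R788 were not described. A difference between TCM and NS therefore cannot be told apart from a difference in base medium or serum. Nothing in the labels said that the 2 libraries of a group came from separate cultures or animals, so p-values measure only the spread between these libraries, which may be technical.

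As background, NRF2 (encoded by Nfe2l2) is a transcription factor that the adaptor KEAP1 marks for degradation. When KEAP1 is blocked by oxidants or electrophiles, NRF2 enters the nucleus and binds the antioxidant response element, from which BACH1, a heme-sensing repressor, is displaced. Its targets make glutathione, reduce thioredoxin and peroxides, supply NADPH, break down heme and store iron. Macrophages recycle iron from old red blood cells: heme oxygenase 1 frees iron from heme, ferritin stores it, and ferroportin (Slc40a1) exports it. Iron regulatory proteins bind iron-responsive elements in untranslated regions (UTRs), where they block translation of ferritin and ferroportin and stabilize the transferrin receptor transcript.

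Short letter patterns known from the elements of this pathway were searched for in the genes. The core of the antioxidant response element, TGACNNNGC, was searched on both strands of RefSeq promoters (GRCm38.p6, 250 bases before to 50 after each start), which were given for 33 of the 40 genes. It was present in 10 of these 33 genes (30.3%) and in 14.0% of 27025 genes with a promoter. It also lay before the start of Mt2, Nfe2l2 and Sod1, whose windows are not shown. Of these, Mt2 rose and Sod1 fell with NB9464 TCM, and Nfe2l2 fell with both TCMs, as described below. Windows of other genes described below are shown with the core in capitals. Of those shown, Gclm, Prdx1, Txnrd1 and G6pdx rose with both TCMs, and Blvra did not pass the threshold used below. Each of the cores shown lies on the reverse strand, so that it reads as TGACNNNGC in the reverse complement.
Gclm (chr3:122245403-122245451, plus strand): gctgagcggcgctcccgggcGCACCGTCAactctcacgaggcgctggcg
Prdx1 (chr4:116685446-116685494, plus strand): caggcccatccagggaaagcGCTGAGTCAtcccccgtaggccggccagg
Txnrd1 (chr10:82859094-82859142, plus strand): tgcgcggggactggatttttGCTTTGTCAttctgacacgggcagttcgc
G6pdx (chrX:74428909-74428957, minus strand): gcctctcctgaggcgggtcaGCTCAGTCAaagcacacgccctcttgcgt
Blvra (chr2:127070588-127070636, plus strand): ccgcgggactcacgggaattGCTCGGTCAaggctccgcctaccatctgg

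The iron-responsive element was searched as the loop CAGTGN closed by 5 base pairs, G with T counted as a pair, with an unpaired C before the stem. It was found in the annotated UTRs of 4 of the 40 genes and of 0.731% of 21877 protein-coding genes. The 4 were the ferritin subunits Fth1 and Ftl1 and the exporter Slc40a1, each with 1 element in the 5′ UTR, and the transferrin receptor Tfrc, with 4 in the 3′ UTR. One element of each is shown in 30 bases of the GENCODE transcript (GRCm38), with the loop in capitals.
Fth1 (chr19:9982732-9982761, plus strand): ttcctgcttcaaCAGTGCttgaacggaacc
Ftl1 (chr7:45459778-45459807, minus strand): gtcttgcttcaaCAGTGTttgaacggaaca
Slc40a1 (chr1:45925464-45925493, minus strand): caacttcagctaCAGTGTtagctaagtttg
Tfrc (chr16:32631219-32631248, plus strand): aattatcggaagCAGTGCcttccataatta

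The core of the metal response element, TGCACNC or TGCGCNC, was present in 10 of the 33 genes and in 28.2% of all genes with a promoter. The metallothionein promoters held several each, counting both strands and the 50 bases after the start, 4 in Mt2 and 3 in Mt1, and 1.97% of 32851 promoters held 3 or more. The stretch before the start of Mt2 with 3 cores in capitals, followed by the single core before the start of Mt1, is given because the counted levels of the 2 transcripts differ widely. Of the 588 exon bases of Mt2, 432 overlap an antisense gene, and the strand setting of the counting was not stated. The level of Mt2 is therefore uncertain.
Mt2 (chr8:94172385-94172584, plus strand): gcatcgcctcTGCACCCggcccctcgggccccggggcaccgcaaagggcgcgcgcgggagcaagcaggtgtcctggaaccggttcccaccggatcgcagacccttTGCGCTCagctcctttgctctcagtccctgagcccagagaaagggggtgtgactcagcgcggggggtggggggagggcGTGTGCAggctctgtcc
Mt1 (chr8:94179056-94179082, plus strand): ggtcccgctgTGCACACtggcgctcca
Matches are descriptions of these letters only, and binding was not measured.

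Total counts were between 44977847 and 56449685 per library. Of the gene counts from 1 to 40, between 65.2% and 67.9% were even numbers in each library, and the cause was not tested. Counts divided by 2 were among the alternatives fitted. Library SJ8 (R788) had the fewest detected genes, 16149 against 17275 to 18343 in the other libraries, and the SD of the log2 difference within the R788 pair was 0.371 against 0.230 to 0.261 in the other pairs. All 10 macrophage markers, among them Adgre1 and Csf1r, were detected in every group. The summed normalized counts of 10 neuroblastoma markers were at most 151 in any library, against 9.48 and 10.3 in NS. They were 86.4 to 90.9 with NB9464 TCM and 119 to 131 with NBT3L TCM. Of the 10 markers, 9 were at 0 in both NS libraries, 7 with NB9464 TCM and 2 with NBT3L TCM. With R788 added, 6 were at 0 with NB9464 TCM and 3 with NBT3L TCM. Th and Chga were at 0 in every library. Summed counts of 8 neutrophil markers were 3972 to 4450 in NS, 8231 to 10359 with TCM and 6804 to 7662 with TCM and R788, most of them from S100a8 and S100a9, while the defining marker Ly6g was at 0 in 9 of 12 libraries and at most 3.79. For 6 fibroblast markers the sums were 1193 to 1518 in NS, 2578 to 2976 with R788 and 3330 to 3402 with NBT3L TCM and R788. Sums of 8 erythroid, 6 lymphocyte and 6 dendritic cell markers reached at most 46.7, 29.99 and 170. The part of such cells in the results was not tested. In bulk RNA, fewer cells of a type and less RNA per cell cannot be told apart.

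Levels can be compared between genes only per length, as TPM, which scales counts per base to the same total in each library. In NS macrophages the ferritin heavy chain Fth1 stood at 44578 ± 700.0 TPM (mean ± SD, n = 2) and the light chain Ftl1 at 11470 ± 237. Next came the peroxiredoxin Prdx1 at 2444 ± 48.1, the glutathione peroxidase Gpx1 at 1540 ± 33.7 and Hmox1 at 1389 ± 19.1, and each of these steps was larger than the SDs. At the other end were the cystine transporter Slc7a11 at 6.31 ± 0.139, Mt2 at 3.07 ± 0.481 and ceruloplasmin, Cp, at 0.556 ± 0.0759. The place of Mt2 is uncertain, because most of its exon bases overlap an antisense gene. Fth1 alone took 1.28% of all counts in NS, and the 40 genes together took 3.01%. With NBT3L TCM these shares were 3.43% and 6.47%, and Fth1 then took the largest share of counts of any gene in both libraries, with no correction for length. With NB9464 TCM the shares were 3.02% and 5.61%. The table gives Fth1 a length of 866 bases, shorter than its merged exons of 3469 bases, so its TPM depends on that choice.

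All further levels are normalized counts, which are counts divided by a library's size factor, and are given in library order. Differences are log2 fold changes from DESeq2 fitted over all 12 libraries, and genes with an adjusted p under 0.05 are those referred to as called. Where pairs of libraries are said to lie apart or not to overlap, this only describes their values. The share of all genes with such pairs was not computed, so it adds no support to a call.

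TCM raised most of the antioxidant and iron genes. With NB9464 TCM, 27 of 40 genes rose and 7 fell against NS, while 17.2% and 16.9% of all genes tested were called higher and lower. With NBT3L TCM, 29 rose and 4 fell, against 18.0% and 17.3% of all genes. The median log2 fold change over the 40 was 0.64 with NB9464 TCM and 0.79 with NBT3L TCM, beside 0.02 and 0 over all genes. Of these genes 39 had a mean of at least 1000 counts. Among the 6989 genes of such a mean, 27.5% were called higher with NB9464 TCM and 29.9% with NBT3L TCM. Lower calls were 25.6% and 25.4% of them. The 2 comparisons share the NS libraries, so that they are not independent of each other.

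The direction of the smaller changes depended on the scaling. Median-of-ratios scaling, used throughout, centers most genes on no change, whereas scaling to the same total TPM, an alternative added after the data were seen, moved the median log2 fold change of all genes to -0.23 with NB9464 TCM and -0.39 with NBT3L TCM. It shifts all genes of a comparison by nearly the same value. With it 25 of the 40 genes rose and 12 fell with NB9464 TCM, beside 9.59% and 30.8% of all genes, and 22 rose and 11 fell with NBT3L TCM, beside 8.18% and 40.7%. Rises with NBT3L TCM of Ftl1 (-0.19, adjusted p = 0.00847), Gclc (-0.04, adjusted p = 0.794), Tkt (-0.07, adjusted p = 0.266), and Aco1 (-0.10, adjusted p = 0.432) turned, given as log2 fold changes with TPM scaling, and of these Ftl1 was then called lower. Ftl1 was called lower with NB9464 TCM too (-0.30, adjusted p = 1.29e-05). The rises of Cat (0.03, adjusted p = 0.779), Gpx1 (0.12, adjusted p = 0.21) and Osgin1 (0.05, adjusted p = 0.797) with NBT3L TCM, and of Osgin1 (0.25, adjusted p = 0.0818) and Tkt (0.10, adjusted p = 0.0744) with NB9464 TCM, were no longer called. Blvra, Gpx4, Ireb2 and Taldo1 became lower calls in both media, with log2 values from -0.56 to -0.30, and Keap1 (-0.57) and Sod1 (-0.45) did with NBT3L TCM.

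**Figure D1:**
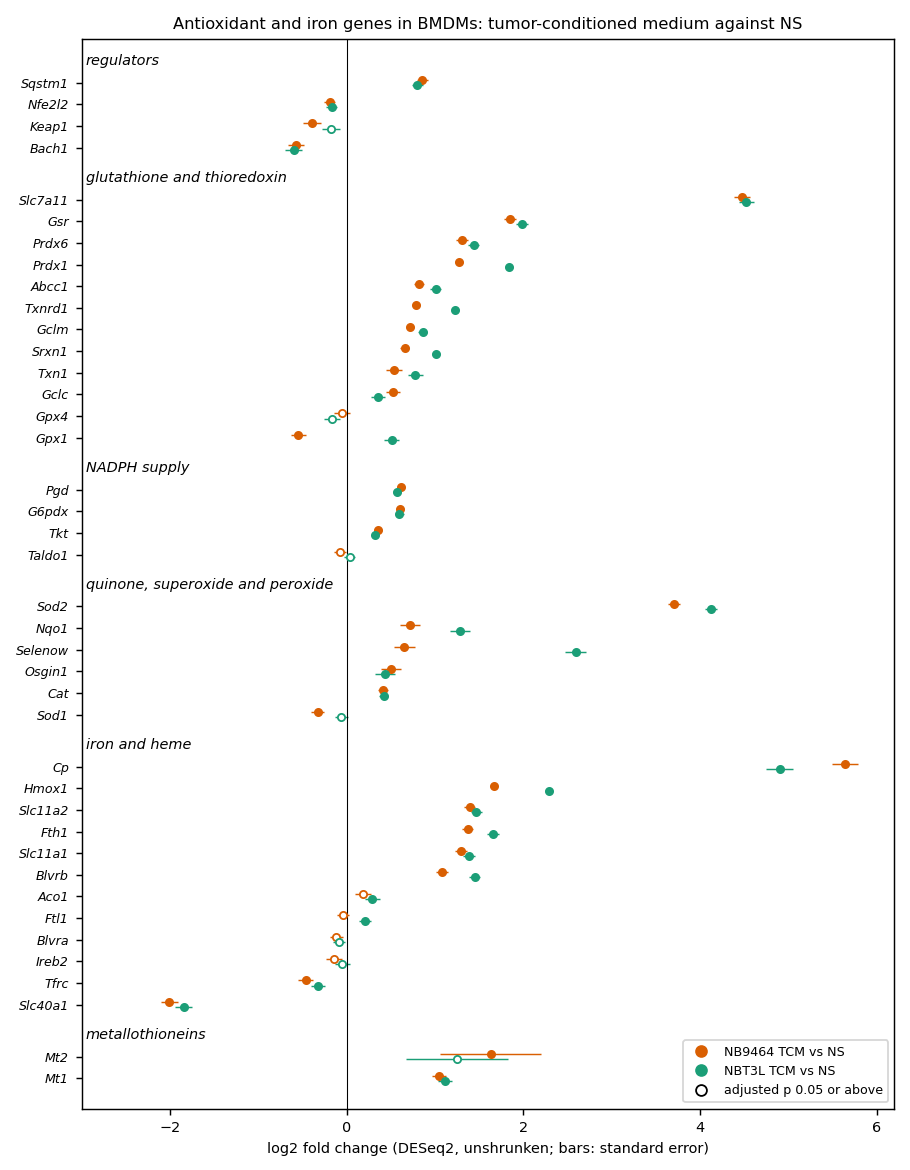
Log2 fold changes of the 40 genes with NB9464 TCM (orange) and NBT3L TCM (green) against NS, by functional class, with standard errors as bars and open points for genes not called. Cp, Slc7a11 and Sod2 lie farthest to the right, with values from 3.70 to 5.64, and Slc40a1 farthest to the left at -2.00 and -1.85.

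Among the transcripts of the NRF2 regulators themselves, Nfe2l2 and Keap1 had small differences, Bach1 fell more and Sqstm1 rose. Nfe2l2 held 11615 and 11300 normalized counts in NS, 9990 and 10067 with NB9464 TCM and 10296 and 10063 with NBT3L TCM. It fell slightly with NB9464 TCM (log2 fold change -0.19 ± 0.06 (SE), DESeq2 adjusted p = 0.00442) and with NBT3L TCM (log2 fold change -0.17 ± 0.06 (SE), DESeq2 adjusted p = 0.0128), and neither pair of TCM libraries overlapped the NS pair. Keap1 held 3811 and 3903 in NS, 2686 and 3172 with NB9464 TCM and 3556 and 3280 with NBT3L TCM. It fell with NB9464 TCM (log2 fold change -0.40 ± 0.10 (SE), DESeq2 adjusted p = 0.00045), whereas with NBT3L TCM the log2 difference was -0.17 (adjusted p = 0.184). Keap1 exons overlap the antisense gene Gm16754, and the strand setting of the counting was not stated. The repressor Bach1 fell further, from 7278 and 6557 in NS to 4686 and 4618 with NB9464 TCM (log2 fold change -0.57 ± 0.10 (SE), DESeq2 adjusted p = 1.45e-08) and 4456 and 4693 with NBT3L TCM (log2 fold change -0.60 ± 0.10 (SE), DESeq2 adjusted p = 3.31e-09). All 4 TCM libraries lay below both NS libraries. Sqstm1, an autophagy receptor that binds KEAP1 and is itself an NRF2 target, was the one regulator that rose, by 0.86 with NB9464 TCM and 0.80 with NBT3L TCM on the log2 scale.

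The cystine transporter and glutathione reductase transcripts rose, and Gclc and Gclm, of the first step of glutathione synthesis, had smaller differences. Of the 12 glutathione and thioredoxin genes, 10 rose and 1 fell with NB9464 TCM, and 11 rose with NBT3L TCM. Slc7a11, the cystine-glutamate exchanger that supplies cysteine for glutathione, held 1336 and 1422 normalized counts in NS, 33048 and 28305 with NB9464 TCM and 32083 and 31255 with NBT3L TCM. It was thus 22.2-fold higher with NB9464 TCM (log2 fold change 4.48 ± 0.09 (SE), DESeq2 adjusted p = 0 at machine precision) and 23.0-fold higher with NBT3L TCM (log2 fold change 4.52 ± 0.09 (SE), DESeq2 adjusted p = 0 at machine precision), with every TCM library far above NS. Gsr, which reduces oxidized glutathione, held 8451 and 7667 in NS, 27226 and 30805 with NB9464 TCM and 30940 and 33065 with NBT3L TCM. The pairs did not overlap, and Gsr was 3.60-fold higher with NB9464 TCM (log2 fold change 1.85 ± 0.07 (SE), DESeq2 adjusted p = 2.78e-158) and 3.97-fold higher with NBT3L TCM (log2 fold change 1.99 ± 0.07 (SE), DESeq2 adjusted p = 2.7e-183). The subunits of glutamate-cysteine ligase, the first enzyme of glutathione synthesis, were called as well. Gclc rose by 0.52 with NB9464 TCM and 0.36 with NBT3L TCM on the log2 scale, the latter turned by TPM scaling, and Gclm, the modifier subunit, by 0.72 and 0.86. Abcc1, which exports glutathione conjugates, held 14261 and 14748 in NS, 26422 and 24779 with NB9464 TCM (log2 fold change 0.82 ± 0.06 (SE), DESeq2 adjusted p = 2.44e-41) and 29309 and 28969 with NBT3L TCM (log2 fold change 1.01 ± 0.06 (SE), DESeq2 adjusted p = 5.44e-62).

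The thioredoxin and peroxiredoxin arm also rose. Prdx1, an abundant cytosolic peroxidase with a match to the core shown above, went from 113331 and 120218 normalized counts in NS to 279593 and 285217 with NB9464 TCM (log2 fold change 1.27 ± 0.04 (SE), DESeq2 adjusted p = 8.91e-182) and 415186 and 420304 with NBT3L TCM (log2 fold change 1.84 ± 0.04 (SE), DESeq2 adjusted p = 0 at machine precision). Both TCM pairs lay well above NS, and the NBT3L pair was the higher of them. Prdx6, a peroxidase of lipid peroxides, held 6728 and 7148 in NS, 16813 and 17425 with NB9464 TCM (log2 fold change 1.30 ± 0.07 (SE), DESeq2 adjusted p = 6.54e-82) and 18504 and 19061 with NBT3L TCM (log2 fold change 1.44 ± 0.07 (SE), DESeq2 adjusted p = 2.31e-99). The thioredoxin reductase Txnrd1, also with a core match shown above, held 21409 and 21216 in NS, 36998 and 36494 with NB9464 TCM (log2 fold change 0.79 ± 0.04 (SE), DESeq2 adjusted p = 1.35e-72) and 50709 and 49411 with NBT3L TCM (log2 fold change 1.23 ± 0.04 (SE), DESeq2 adjusted p = 6.05e-178). Its groups did not overlap. Srxn1, which repairs overoxidized peroxiredoxins, held 10116 and 10286 in NS, 16036 and 16120 with NB9464 TCM (log2 fold change 0.66 ± 0.05 (SE), DESeq2 adjusted p = 1.32e-39) and 20825 and 20311 with NBT3L TCM (log2 fold change 1.01 ± 0.05 (SE), DESeq2 adjusted p = 2.57e-93). Txn1, the cytosolic thioredoxin, rose by 0.54 and 0.78. Gpx4, the peroxidase that guards membranes against lipid peroxides, was not called in any of the comparisons with all 12 libraries and median-of-ratios scaling, with log2 differences of -0.05 and -0.16 here. A pseudogene of Gpx4 held 363 to 1009 counts per library, the most in SJ8. The treatment of reads with several positions was not stated, so values of Gpx4 are uncertain to that extent.

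**Figure D2:**
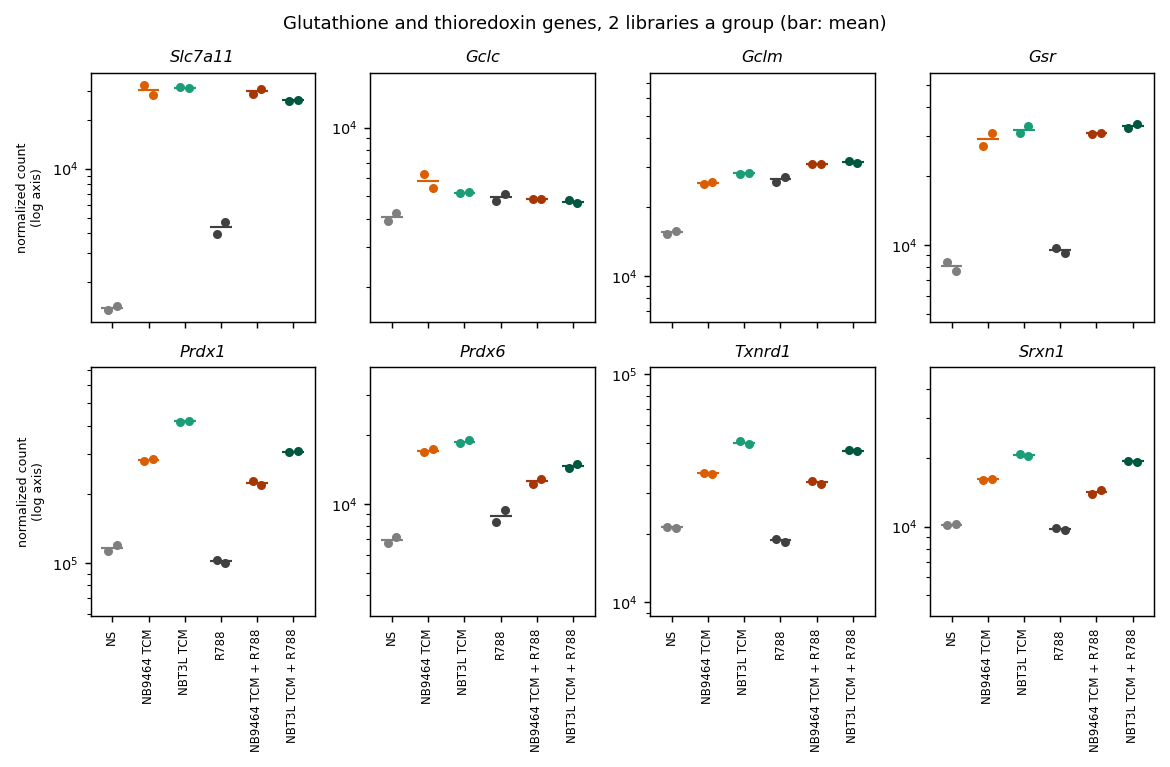
Normalized counts on log axes of 8 glutathione and thioredoxin genes in the 6 groups, with a point for each of the 2 libraries and a bar for their mean. Slc7a11 separates the groups most, from 1336 and 1422 in NS and 3964 and 4713 with R788 alone to 26322 and 26655 in the lowest TCM group, NBT3L TCM with R788.

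Among the genes of NADPH supply, which feeds reducing power to Gsr and Txnrd1, 3 of 4 rose in each TCM. G6pdx, the entry enzyme of the pentose phosphate pathway, rose by 0.60 with NB9464 TCM and 0.60 with NBT3L TCM on the log2 scale. The next dehydrogenase of the pathway, Pgd, rose by 0.62 and 0.57, and the transketolase Tkt by 0.36 and 0.33, where TPM scaling ended the first call and turned the second value. Taldo1, the transaldolase, had log2 differences of -0.08 and 0.03 and was not called. G6pdx exons overlap those of Ikbkg on the other strand.

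Mitochondrial superoxide dismutase was among the strongest responders, and its cytosolic counterpart was not. Sod2 held 5317 and 5642 normalized counts in NS, 69974 and 72595 with NB9464 TCM and 95825 and 95954 with NBT3L TCM. It was 13.0-fold higher with NB9464 TCM (log2 fold change 3.70 ± 0.07 (SE), DESeq2 adjusted p = 0 at machine precision) and 17.5-fold higher with NBT3L TCM (log2 fold change 4.13 ± 0.07 (SE), DESeq2 adjusted p = 0 at machine precision), with no overlap. Sod1, the cytosolic enzyme, fell by 0.33 on the log2 scale with NB9464 TCM (adjusted p = 0.00014), and its log2 difference with NBT3L TCM was -0.06 (adjusted p = 0.644). Nqo1, a quinone reductase and classical NRF2 target, held 1865 and 1868 in NS, 2835 and 3306 with NB9464 TCM (log2 fold change 0.72 ± 0.11 (SE), DESeq2 adjusted p = 2.55e-09) and 4260 and 4838 with NBT3L TCM (log2 fold change 1.29 ± 0.11 (SE), DESeq2 adjusted p = 2.49e-28). All TCM libraries lay above NS. The oxidative stress gene Osgin1 rose by 0.50 and 0.44, and catalase, Cat, by 0.41 and 0.42, and with TPM scaling neither call held with NBT3L TCM.

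Among the iron and heme genes, those for heme breakdown, ferritin heavy chain and metal transport rose while the iron exporter fell. In this class 6 of 12 rose and 2 fell with NB9464 TCM, and 8 rose and 2 fell with NBT3L TCM. Hmox1, the inducible heme oxygenase, held 37941 and 38388 normalized counts in NS, 118457 and 123495 with NB9464 TCM and 183806 and 188472 with NBT3L TCM. It was 3.17-fold higher with NB9464 TCM (log2 fold change 1.66 ± 0.04 (SE), DESeq2 adjusted p = 0 at machine precision) and 4.88-fold higher with NBT3L TCM (log2 fold change 2.29 ± 0.04 (SE), DESeq2 adjusted p = 0 at machine precision), and the 3 pairs lay apart. Of the biliverdin reductases, which take the next step, Blvrb held 11949 and 13004 in NS, 25066 and 27619 with NB9464 TCM (log2 fold change 1.08 ± 0.06 (SE), DESeq2 adjusted p = 1.34e-61) and 35072 and 33105 with NBT3L TCM (log2 fold change 1.45 ± 0.06 (SE), DESeq2 adjusted p = 4.81e-111). Blvra, whose promoter holds the core match shown above, was not called in any comparison at this scaling, with log2 differences of -0.12 and -0.09 in the TCMs.

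The ferritin subunits differed in the same libraries. Fth1, whose protein oxidizes iron for storage, held 590012 and 622344 normalized counts in NS, 1514249 and 1621216 with NB9464 TCM (log2 fold change 1.37 ± 0.07 (SE), DESeq2 adjusted p = 3.73e-96) and 1918971 and 1906261 with NBT3L TCM (log2 fold change 1.66 ± 0.07 (SE), DESeq2 adjusted p = 1.92e-140). The TCM libraries were all more than 2-fold above the NS libraries. Ftl1 held 234081 and 248635 in NS, 217506 and 251277 with NB9464 TCM and 273030 and 284233 with NBT3L TCM. It overlapped NS with NB9464 TCM (log2 difference -0.04, adjusted p = 0.699) and rose a little with NBT3L TCM (log2 fold change 0.21 ± 0.07 (SE), DESeq2 adjusted p = 0.00564), a direction that TPM scaling turned (-0.19, adjusted p = 0.00847). A pseudogene of Ftl1 held 318 to 552 counts per library and the treatment of reads with several positions was not stated. The 2 transcripts carry the same kind of element in the 5′ UTR, and protein was not measured.

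Ferroportin and the transferrin receptor were lower with TCM. Slc40a1, the only known iron exporter, held 4343 and 4366 normalized counts in NS, 1149 and 1022 with NB9464 TCM and 1155 and 1267 with NBT3L TCM. It fell to 0.249 of the NS level with NB9464 TCM (log2 fold change -2.00 ± 0.09 (SE), DESeq2 adjusted p = 6.39e-102) and to 0.278 with NBT3L TCM (log2 fold change -1.85 ± 0.09 (SE), DESeq2 adjusted p = 1.19e-85), without overlap. Tfrc, the receptor that takes up transferrin-bound iron, fell by 0.46 with NB9464 TCM and by 0.32 with NBT3L TCM on the log2 scale (DESeq2 adjusted p = 1.36e-07 and 0.000441). Cp, a ferroxidase that works with ferroportin, went from 74.2 and 92.9 in NS to 4398 and 3960 with NB9464 TCM (log2 fold change 5.64 ± 0.15 (SE), DESeq2 adjusted p = 0 at machine precision) and 2498 and 2496 with NBT3L TCM (log2 fold change 4.90 ± 0.15 (SE), DESeq2 adjusted p = 9.87e-234). These were the largest changes of the 40 genes, from the lowest TPM in NS. Cp exons overlap those of Hps3 over 108 bases on the other strand.

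The divalent metal transporters rose together. Slc11a1 (NRAMP1), which moves iron and manganese out of the phagosome, held 20548 and 19464 normalized counts in NS, 47699 and 50407 with NB9464 TCM (log2 fold change 1.29 ± 0.06 (SE), DESeq2 adjusted p = 3.64e-91) and 50730 and 53771 with NBT3L TCM (log2 fold change 1.39 ± 0.06 (SE), DESeq2 adjusted p = 2.24e-104). Slc11a2 (DMT1), its endosomal relative, held 4142 and 3997 in NS, 10435 and 10931 with NB9464 TCM (log2 fold change 1.39 ± 0.07 (SE), DESeq2 adjusted p = 2.19e-96) and 11141 and 11394 with NBT3L TCM (log2 fold change 1.47 ± 0.07 (SE), DESeq2 adjusted p = 5.7e-107). Neither gene overlapped NS in any TCM library. The iron regulatory proteins themselves differed little. Aco1 (IRP1) rose by 0.29 with NBT3L TCM, which TPM scaling turned, and was not called with NB9464 TCM (0.19), and Ireb2 (IRP2) was called in no comparison at median-of-ratios scaling (-0.14 and -0.05).

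Both metallothioneins, small proteins that bind zinc and copper, had higher values with TCM. Mt1 held 7342 and 8456 normalized counts in NS, 15554 and 17032 with NB9464 TCM (log2 fold change 1.04 ± 0.08 (SE), DESeq2 adjusted p = 1.78e-37) and 17280 and 16978 with NBT3L TCM (log2 fold change 1.12 ± 0.08 (SE), DESeq2 adjusted p = 1.06e-42), and the TCM libraries were all above NS. Mt2, whose promoter stretch is shown above, held only 31.0 and 25.6 in NS, 95.7 and 79.9 with NB9464 TCM (log2 fold change 1.63 ± 0.57 (SE), DESeq2 adjusted p = 0.015) and 63.1 and 71.4 with NBT3L TCM (log2 fold change 1.25 ± 0.58 (SE), DESeq2 adjusted p = 0.0788). At these counts the difference with NBT3L TCM was not called. The Mt2 exons lie largely opposite the antisense gene Gm45774, with 432 of 588 bases shared, so its reads are uncertain.

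**Figure D3:**
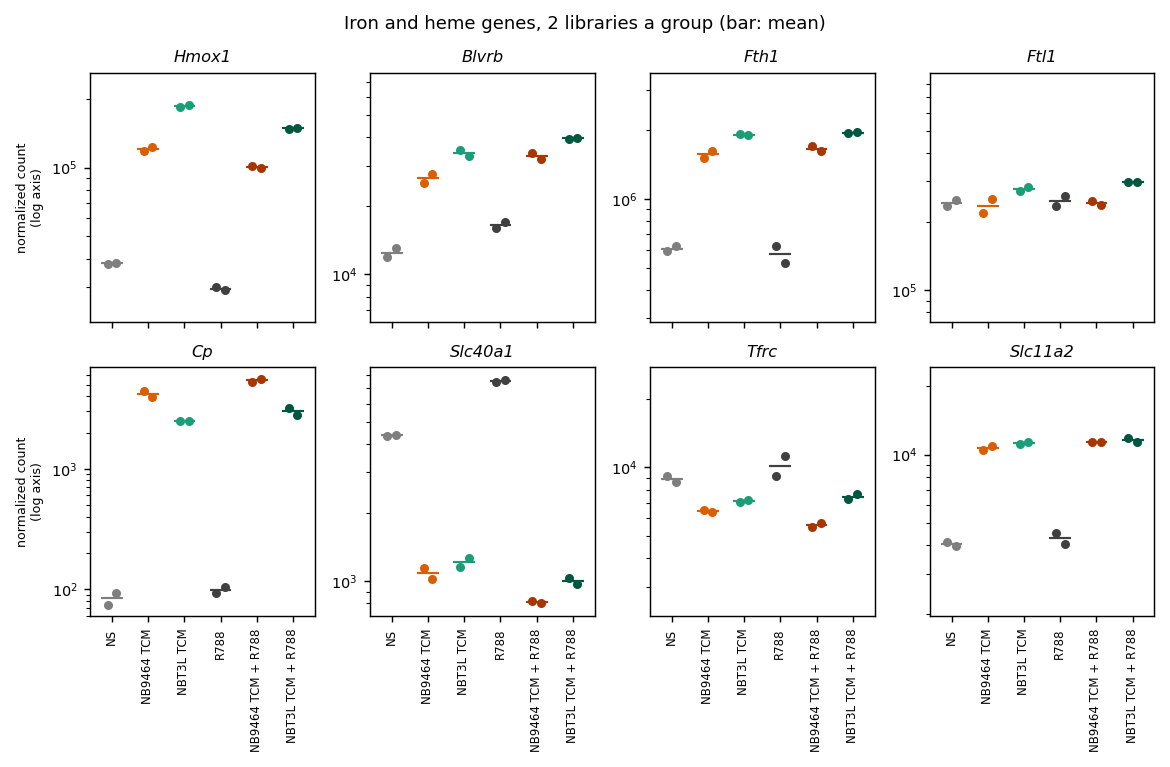
Normalized counts on log axes of 8 iron and heme genes in the 6 groups, with a point per library and a bar for the mean of 2. Hmox1, Blvrb, Fth1, Cp and Slc11a2 are higher in all TCM groups, Slc40a1 is lower there and highest with R788 alone (7477 and 7626), and Ftl1 lies between 217506 and 298678.

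Most TCM calls held when any single library was left out. With NB9464 TCM, calls were lost without 1 library for Mt2 (SJ1, SJ2, SJ3 or SJ4, adjusted p 0.0591 to 0.124) and Nfe2l2 (SJ1, adjusted p 0.0708). With NBT3L TCM they were lost for Aco1 (SJ1 or SJ5, adjusted p 0.0567 to 0.159), Ftl1 (SJ1 or SJ6, adjusted p 0.0925 to 0.108) and Nfe2l2 (SJ1, SJ5 or SJ6, adjusted p 0.0557 to 0.128). With only the NS and NBT3L TCM libraries fitted, Gpx4 was called lower (-0.15, adjusted p = 0.0427).

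The 2 media differed in a subset of the genes, mostly with lower values in NB9464 TCM. Of the 40, 1 was higher and 15 were lower in NB9464 TCM than in NBT3L TCM, against 3.69% and 5.72% of all genes. The median log2 difference was -0.12, beside -0.0014 over all genes. With TPM scaling, which moved the median of all genes to 0.13, the split became 7 higher and 9 lower, beside 9.08% and 2.24% of all genes. The one gene higher with NB9464 TCM at median-of-ratios scaling was Cp (log2 fold change 0.74 ± 0.10 (SE), DESeq2 adjusted p = 6.12e-11). The 2 with the largest differences were selenoproteins, which carry selenocysteine. Selenow, a small thiol redox protein, held 3666 and 3993 normalized counts with NB9464 TCM and 15333 and 14018 with NBT3L TCM, against 2344 and 2524 in NS. It was lower with NB9464 TCM by a log2 difference of -1.94 ± 0.12 (DESeq2 adjusted p = 9.87e-60), although it rose against NS with NB9464 TCM (0.65) as well as with NBT3L TCM (2.59). Gpx1, the main cytosolic glutathione peroxidase, held 33757 and 35919 in NS, 23390 and 24326 with NB9464 TCM and 48009 and 51171 with NBT3L TCM. It fell with NB9464 TCM (log2 fold change -0.55 ± 0.08 (SE), DESeq2 adjusted p = 2.09e-10) and rose with NBT3L TCM (log2 fold change 0.51 ± 0.08 (SE), DESeq2 adjusted p = 3.4e-09), and the direct difference was -1.06 ± 0.08 (adjusted p = 1.02e-35). It was the only one of the 40 genes called in opposite directions by the 2 media at this scaling.

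Other selenoproteins were then compared, a grouping made after these values were seen. Of 19 further selenoprotein and selenium genes, 1 was called higher and 3 lower with NB9464 TCM than with NBT3L TCM, beside 3.69% and 5.72% of all genes. Selenoh, a nuclear redox protein, held 1258 and 1379 normalized counts in NS, 752 and 909 with NB9464 TCM and 1871 and 1806 with NBT3L TCM. Like Gpx1 it fell with the former (-0.67) and rose with the latter (0.48), and the direct log2 difference was -1.15 (adjusted p = 1e-16). Selenom, of the endoplasmic reticulum, differed by -0.59 (adjusted p = 0.000252) and Selenof by -0.26 (adjusted p = 5.22e-06). Sephs2, itself a selenoprotein and the enzyme that makes the selenium donor, went the other way, with 5174 and 5567 with NB9464 TCM and 3678 and 3837 with NBT3L TCM (log2 difference 0.52, adjusted p = 3.11e-10). Gpx4, also a selenoprotein, had 11449 and 11696 and 10742 and 10672, and these pairs were not called different (log2 difference 0.11, adjusted p = 0.504). Txnrd1, another, differed by -0.45 (adjusted p = 4.17e-23). Selenop, the selenium carrier of plasma, had values of 12681 and 12326 and 12916 and 13172, with a log2 difference of -0.06 (adjusted p = 0.467).

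**Figure D4:**
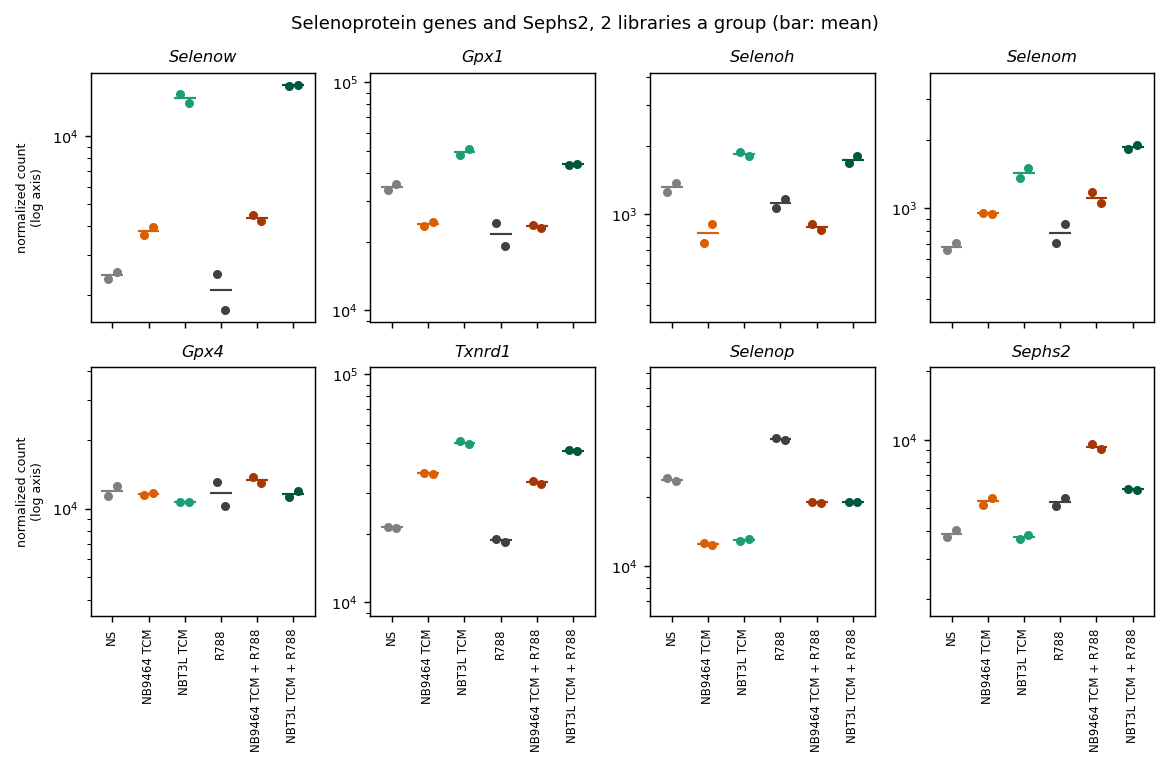
Normalized counts on log axes of 7 selenoprotein genes and Sephs2, which is one as well, in the 6 groups, with a point per library and a bar for the mean of 2. Selenow, Gpx1, Selenoh and Selenom are higher in the NBT3L TCM pairs than in the NB9464 TCM pairs with and without R788, and Gpx4 lies between 10261 and 13730 in all libraries.

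The remaining differences between the media were smaller. Lower with NB9464 TCM at both scalings were Hmox1 (-0.62, adjusted p = 1.21e-48), Nqo1 (-0.57, adjusted p = 1.38e-05), Prdx1 (-0.56, adjusted p = 3.16e-35) and Sod2 (-0.43, adjusted p = 6.11e-09), given as log2 differences. The same direction was called for Srxn1 (-0.36) and Blvrb (-0.37). It was also called for Fth1 (-0.29), Sod1 (-0.27), Ftl1 (-0.25), Txn1 (-0.24), Abcc1 (-0.19) and Gclm (-0.14), but not with TPM scaling. G6pdx, Gclc, Gpx4, Pgd, Sqstm1 and Tkt were called higher with NB9464 TCM by that scaling alone among fits of all libraries, with log2 differences from 0.14 to 0.31. Slc7a11 (-0.05), Gsr (-0.14) and Slc40a1 (-0.16) were not called, nor were the regulators and the genes of NADPH supply. The lower calls numbered between 11 and 15 as each library was left out. They were lost without 1 library for Abcc1 (SJ4, SJ5 or SJ6, adjusted p 0.139 to 0.244), Ftl1 (SJ3 or SJ6, adjusted p 0.1 to 0.19), Gclm (SJ3, SJ4, SJ5 or SJ6, adjusted p 0.0659 to 0.249), Sod1 (SJ3 or SJ5, adjusted p 0.215 to 0.282) and Txn1 (SJ3, SJ5 or SJ6, adjusted p 0.0505 to 0.439). With edgeR they were lost for Abcc1 (adjusted p = 0.0823), Gclm (adjusted p = 0.126), Sod1 (adjusted p = 0.0629) and Txn1 (adjusted p = 0.158). Without SJ4 the higher calls became 2, with Gclc gained, and Gsr and Keap1 were gained as lower, so that gained calls were Gclc (SJ4, adjusted p 0.0436), Gsr (SJ4, adjusted p 0.0216) and Keap1 (SJ4, adjusted p 0.0369).

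R788 without TCM moved the genes in both directions. Against NS, 18 of 40 rose and 7 fell, while 11.6% and 15.0% of all genes were called higher and lower. The median was 0.17, beside 0 over all genes. Library SJ8, which stood apart from its pair in detected genes, is one of the 2 R788 libraries, and calls lost or gained without it are given below. The largest rise was in Slc7a11, with 1336 and 1422 normalized counts in NS and 3964 and 4713 with R788 (log2 fold change 1.65 ± 0.09 (SE), DESeq2 adjusted p = 1.46e-79). Sod2 went from 5317 and 5642 to 10463 and 8745 (log2 fold change 0.81 ± 0.07 (SE), DESeq2 adjusted p = 1.42e-30). Slc40a1, which TCM lowered, was higher with R788, at 7477 and 7626 against 4343 and 4366 (log2 fold change 0.79 ± 0.09 (SE), DESeq2 adjusted p = 8.59e-18). The libraries of these 3 genes, named here for the largest rises, did not overlap between the groups.

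Several NRF2 targets rose with R788 and others did not. Gclm rose by 0.77, Osgin1 by 0.63, Cat by 0.63 and Sqstm1 by 0.55 on the log2 scale. Nqo1 held 1865 and 1868 normalized counts in NS and 3071 and 2474 with R788 (log2 fold change 0.57 ± 0.11 (SE), DESeq2 adjusted p = 5.77e-06). Nfe2l2 rose from 11615 and 11300 to 14290 and 13245 (log2 fold change 0.26 ± 0.06 (SE), DESeq2 adjusted p = 5.52e-05), and Bach1 from 7278 and 6557 to 8201 and 9100 (log2 fold change 0.32 ± 0.09 (SE), DESeq2 adjusted p = 0.00346), whereas Keap1 was not called (-0.12). Smaller rises were called for Blvrb (0.41), Prdx6 (0.36), Abcc1 (0.30), Gclc (0.29), Gsr (0.23), Slc11a1 (0.20), Pgd (0.20) and Taldo1 (0.20).

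The 7 genes that fell with R788 included the peroxidases Gpx1 and Prdx1 and thioredoxin. Gpx1 went from 33757 and 35919 normalized counts in NS to 24251 and 19077 (log2 fold change -0.69 ± 0.08 (SE), DESeq2 adjusted p = 1.45e-15). Hmox1 went from 37941 and 38388 to 29956 and 29104 (log2 fold change -0.37 ± 0.04 (SE), DESeq2 adjusted p = 2.66e-17), and the R788 pair lay below NS. Txn1 (-0.38), Sod1 (-0.21), Prdx1 (-0.20), Tkt (-0.20) and Txnrd1 (-0.19) also fell, given as log2 fold changes. Fth1 (-0.08), Selenow (-0.22), Srxn1 (-0.06) and Cp (0.23) were not called. Without library SJ7, which leaves SJ8 alone in its group, calls were gained as decreases for Fth1 (SJ7, adjusted p 0.000105), Gpx4 (SJ7, adjusted p 0.00595) and Selenow (SJ7, adjusted p 3.62e-08) and as increases for Blvra (SJ7, adjusted p 0.0148) and Tfrc (SJ7, adjusted p 1.96e-05), and lower calls numbered 10. Leaving out 1 library ended the call of Bach1 (SJ2 or SJ8, adjusted p 0.0624 to 0.112), Gclc (SJ1, adjusted p 0.0879), Gsr (SJ2, adjusted p 0.146), Slc11a1 (SJ2 or SJ7, adjusted p 0.136 to 0.14), Sod1 (SJ2 or SJ8, adjusted p 0.0797 to 0.425) and Taldo1 (SJ1 or SJ7, adjusted p 0.147 to 0.198). With edgeR the call of Sod1 (adjusted p = 0.052) was lost. With only the 4 libraries compared, lower calls numbered 4, beside 12.4% of all genes. Those lost were Tkt (-0.19, adjusted p = 0.0514), Txnrd1 (-0.18, adjusted p = 0.0715) and Sod1 (-0.21, adjusted p = 0.102), besides the higher calls of Taldo1 (0.20, adjusted p = 0.0763) and Slc11a1 (0.20, adjusted p = 0.0802).

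**Figure D5:**
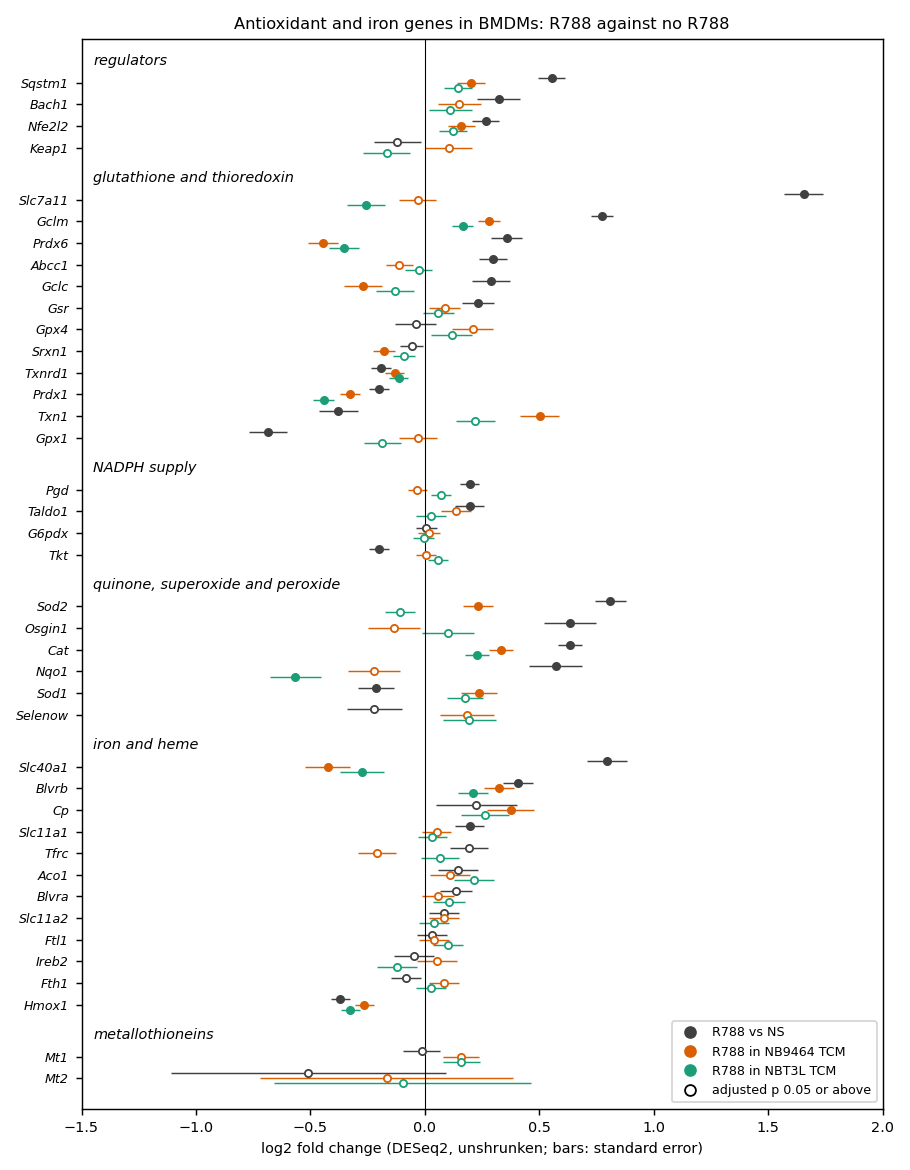
Log2 fold changes of the 40 genes with R788 against no R788, in the absence of TCM (dark), with NB9464 TCM (orange) and with NBT3L TCM (green), by functional class, with standard errors as bars and open points for genes not called. Slc7a11 and Slc40a1 show the widest gaps between no TCM and NB9464 TCM, at 1.65 and 0.79 without TCM and at -0.03 and -0.42 in NB9464 TCM.

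Given together with TCM, R788 lowered peroxiredoxins, heme oxygenase and ferroportin and raised catalase and biliverdin reductase B. In NB9464 TCM, 9 of 40 rose and 7 fell with R788, while 5.79% and 8.7% of all genes were called higher and lower. In NBT3L TCM, 3 rose and 7 fell, against 5.33% and 7.24% of all genes. The most extreme log2 fold change was 0.50 for Txn1 in NB9464 TCM and -0.57 for Nqo1 in NBT3L TCM. The genes that fell in NB9464 TCM came mostly from the glutathione and thioredoxin class, 5 of 12, and this class had 4 of 12 lower in NBT3L TCM. Prdx6 held 16813 and 17425 normalized counts in NB9464 TCM and 12284 and 12855 with R788 added (log2 fold change -0.45 ± 0.07 (SE), DESeq2 adjusted p = 1.04e-09), and 18504 and 19061 in NBT3L TCM and 14432 and 14985 with R788 (log2 fold change -0.35 ± 0.07 (SE), DESeq2 adjusted p = 3.33e-06). Prdx1 went from 279593 and 285217 to 229649 and 220372 in NB9464 TCM (log2 fold change -0.33 ± 0.04 (SE), DESeq2 adjusted p = 4.98e-12) and from 415186 and 420304 to 305804 and 308723 in NBT3L TCM (log2 fold change -0.44 ± 0.04 (SE), DESeq2 adjusted p = 7.07e-22). In neither medium did the pairs with R788 overlap the pairs without it.

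Heme oxygenase and the iron exporter also fell with R788 in TCM. Hmox1 went from 118457 and 123495 normalized counts to 101366 and 99988 in NB9464 TCM (log2 fold change -0.26 ± 0.04 (SE), DESeq2 adjusted p = 5.22e-09) and from 183806 and 188472 to 147966 and 149135 in NBT3L TCM (log2 fold change -0.33 ± 0.04 (SE), DESeq2 adjusted p = 1.8e-13). Slc40a1, which R788 raised without TCM, went from 1149 and 1022 to 818 and 799.7 in NB9464 TCM (log2 fold change -0.42 ± 0.10 (SE), DESeq2 adjusted p = 0.00025) and from 1155 and 1267 to 1030 and 974 in NBT3L TCM (log2 fold change -0.27 ± 0.10 (SE), DESeq2 adjusted p = 0.0342). Nqo1 fell in NBT3L TCM, from 4260 and 4838 to 3091 and 3056 (log2 fold change -0.57 ± 0.11 (SE), DESeq2 adjusted p = 1.29e-05), and was not called in NB9464 TCM (-0.22). Slc7a11, raised by R788 alone, had log2 differences of -0.03 in NB9464 TCM, which was not called, and -0.26 in NBT3L TCM. Smaller falls in NB9464 TCM were called for Gclc (-0.27), Srxn1 (-0.18) and Txnrd1 (-0.13), and in NBT3L TCM for Txnrd1 (-0.12).

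The genes that rose with R788 in TCM came from several classes. In NB9464 TCM they were Txn1 (0.50), Cp (0.38), Cat (0.33), Blvrb (0.32), Gclm (0.28), Sod1 (0.24), Sod2 (0.23), Sqstm1 (0.20) and Nfe2l2 (0.16), as log2 fold changes. In NBT3L TCM they were Cat (0.23), Blvrb (0.21) and Gclm (0.17). Cp, for example, went from 4398 and 3960 normalized counts in NB9464 TCM to 5239 and 5603 with R788, and from 2498 and 2496 to 3188 and 2804 in NBT3L TCM, where it was not called (adjusted p = 0.0692). The other 24 and 30 genes, among them Fth1, Ftl1, Gsr, Slc11a1, Slc11a2, Mt1 and all 4 genes of NADPH supply, were not called in NB9464 TCM and NBT3L TCM in the fit of all 12 libraries.

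These calls rest on small differences, and many did not hold with 1 library fewer. In NB9464 TCM, the higher calls were 5 without SJ3 and 5 without SJ9, and the lower calls were 4 without SJ9. Calls were lost without 1 library there for Cp (SJ4 or SJ10, adjusted p 0.106 to 0.109), Gclc (SJ3, SJ9 or SJ10, adjusted p 0.0829 to 0.312), Nfe2l2 (SJ3, SJ4, SJ9 or SJ10, adjusted p 0.131 to 0.313), Sod1 (SJ3 or SJ9, adjusted p 0.227 to 0.279), Sod2 (SJ3 or SJ9, adjusted p 0.0828 to 0.0988), Sqstm1 (SJ3 or SJ9, adjusted p 0.142 to 0.147), Srxn1 (SJ9, adjusted p 0.133) and Txnrd1 (SJ3, SJ4, SJ9 or SJ10, adjusted p 0.0663 to 0.23). In NBT3L TCM, the lower calls were 4 without any one of SJ5, SJ6, SJ11 and SJ12, and the higher calls were 1 without SJ6, SJ11 or SJ12. Calls were lost there for Blvrb (SJ6, SJ11 or SJ12, adjusted p 0.0932 to 0.219), Gclm (SJ5, SJ6, SJ11 or SJ12, adjusted p 0.0624 to 0.123), Slc40a1 (SJ5, SJ6, SJ11 or SJ12, adjusted p 0.0533 to 0.404), Slc7a11 (SJ5, SJ6, SJ11 or SJ12, adjusted p 0.0752 to 0.134) and Txnrd1 (SJ5, SJ6, SJ11 or SJ12, adjusted p 0.177 to 0.366), and gained without SJ5 for Aco1 (SJ5, adjusted p 0.0404) and Txn1 (SJ5, adjusted p 0.0498). With edgeR the calls of Nfe2l2 (adjusted p = 0.119), Sod1 (adjusted p = 0.0645) and Txnrd1 (adjusted p = 0.0608) were lost in NB9464 TCM and those of Slc40a1 (adjusted p = 0.0701), Slc7a11 (adjusted p = 0.0542) and Txnrd1 (adjusted p = 0.161) in NBT3L TCM. With only the 4 libraries of NBT3L TCM with and without R788 fitted, 13 genes were called higher and 9 lower. In that fit 8.99% and 10.6% of all genes were called higher and lower. Gained there as higher were Txn1 (0.22, adjusted p = 5.26e-07), Cp (0.26, adjusted p = 0.0208), Aco1 (0.22, adjusted p = 0.0318), Selenow (0.20, adjusted p = 0.000184), Sod1 (0.18, adjusted p = 0.00444), Mt1 (0.16, adjusted p = 0.000103), Sqstm1 (0.14, adjusted p = 5.56e-07), Nfe2l2 (0.12, adjusted p = 0.0459), Ftl1 (0.10, adjusted p = 1.45e-05) and Pgd (0.07, adjusted p = 0.0145), as log2 fold changes. Gained as lower were Gpx1 (-0.19, adjusted p = 6.19e-08), Sod2 (-0.11, adjusted p = 2.51e-06) and Srxn1 (-0.09, adjusted p = 0.04), and the call of Slc40a1 was lost (-0.27, adjusted p = 0.135). In NB9464 TCM the same kind of fit gained Gpx4 as higher (0.21, adjusted p = 0.00456) and Tfrc as lower (-0.21, adjusted p = 0.0256). With TPM scaling, 4 genes rose and 9 fell with R788 in NB9464 TCM, beside 3.23% and 11.1% of all genes. In NBT3L TCM 4 rose and 4 fell with it, beside 4.97% and 6.41%. Calls lost to this scaling were those of Cp, Nfe2l2, Sod1, Sod2 and Sqstm1 in NB9464 TCM and of Slc40a1, Slc7a11 and Txnrd1 in NBT3L TCM. The calls of Prdx1, Prdx6, Hmox1 and Cat in both media and of Nqo1 in NBT3L TCM were kept under every alternative tried.

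Whether the effect of R788 itself depended on the medium was tested as a difference of differences. For NB9464 TCM, 4 genes had a more positive and 13 a more negative effect of R788 than without TCM, 17 in all, against 12.5% of all genes called in either direction. For NBT3L TCM the numbers were 4 and 12, 16 in all, against 10.1%. The most negative in NB9464 TCM were Slc7a11 (-1.68, adjusted p = 4.34e-43 for NB9464 TCM and -1.91, adjusted p = 1.41e-55 for NBT3L TCM) and Slc40a1 (-1.22, adjusted p = 6.09e-18 and -1.07, adjusted p = 6.06e-14), on the log2 scale. Prdx6 (-0.80 and -0.71), Nqo1 (-0.79 and -1.14), Osgin1 (-0.77 and -0.53) and Sod2 (-0.58 and -0.92) followed. The most positive were Txn1 (0.88, adjusted p = 2.73e-11 and 0.60, adjusted p = 2.27e-05) and Gpx1 (0.65, adjusted p = 5.83e-07 and 0.50, adjusted p = 0.00034). In normalized counts, R788 took Slc40a1 from 4343 and 4366 to 7477 and 7626 without TCM, and from 1149 and 1022 to 818 and 799.7 in NB9464 TCM. Both tests use the same R788 and NS libraries, so they are not independent. Without SJ7, the more positive calls became 7 in each medium, as calls were gained for Fth1, Gpx4 and Selenow. All calls gained without 1 library were Fth1 (SJ7, adjusted p 3.83e-05), Gpx4 (SJ7, adjusted p 2.39e-05), Selenow (SJ7, adjusted p 6.52e-09) and Slc11a1 (SJ8, adjusted p 0.0136) in NB9464 TCM, and Blvrb (SJ7, adjusted p 0.0329), Fth1 (SJ7, adjusted p 0.00169), Gpx4 (SJ7, adjusted p 0.00178), Selenow (SJ7, adjusted p 2.56e-09), Slc11a1 (SJ8, adjusted p 0.00722), Taldo1 (SJ8, adjusted p 0.0162) and Tfrc (SJ7, adjusted p 0.025) in NBT3L TCM. Those of Slc11a1, Taldo1, Blvrb and Tfrc were more negative. Calls were lost without 1 library for Tfrc (SJ2 or SJ9, adjusted p 0.0566 to 0.0707) and Tkt (SJ2, SJ3 or SJ9, adjusted p 0.0708 to 0.0947) in NB9464 TCM and for Gclc (SJ1 or SJ12, adjusted p 0.0569 to 0.0598), Osgin1 (SJ1, SJ5, SJ6 or SJ11, adjusted p 0.0516 to 0.0875) and Sod1 (SJ2 or SJ6, adjusted p 0.0864 to 0.0942) in NBT3L TCM. The call of Tkt in NB9464 TCM was also lost in edgeR (adjusted p = 0.0571), with only the libraries compared (adjusted p = 0.0689) and with TPM scaling (adjusted p = 0.646). With that scaling the more positive and more negative calls were 3 and 19 in NB9464 TCM, beside 2.82% and 10.7% of all genes. In NBT3L TCM they were 3 and 16, beside 3.28% and 6.05%.

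Between the 2 media, the effect of R788 was called different for 1 gene, against 0.706% of all genes. This was Sod2, with 69974 and 72595 normalized counts without and 84940 and 82447 with R788 in NB9464 TCM, and 95825 and 95954 and 88360 and 89522 in NBT3L TCM (log2 fold change 0.34 ± 0.09 (SE), DESeq2 adjusted p = 0.042). The call was lost in edgeR (adjusted p = 0.264) and without any one of SJ3, SJ5, SJ6, SJ9, SJ10, SJ11 and SJ12, with adjusted p from 0.116 to 0.307, and with TPM scaling (0.27, adjusted p = 0.144). In fits of all 12 libraries no gene was called in the other direction by DESeq2 or edgeR. With only the libraries compared, Tfrc was called in that direction (-0.27, adjusted p = 0.0316) and Txn1 in the direction of Sod2 (0.28, adjusted p = 0.00908). Of the 40, 5 had an unadjusted p under 0.05 in DESeq2.

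Further genes of the same pathways were listed, 140 in all, of which 137 passed the count filter. With NB9464 TCM, 55 of the 137 were called higher and 21 lower, and with NBT3L TCM 58 and 21, beside the 17.2% and 16.9% and the 18.0% and 17.3% of all genes given above. These shares of all genes are the ones to set beside each list that follows. Among 32 further glutathione and thioredoxin genes, 20 rose and 4 fell with NB9464 TCM. The microsomal transferase Mgst2 rose most there (2.40, adjusted p = 1.99e-67), as a log2 fold change, while its relative Mgst3 fell most (-1.79, adjusted p = 1.31e-32). The mitochondrial peroxiredoxin Prdx5 rose most with NBT3L TCM, from 15205 and 17559 normalized counts to 89500 and 84783 (2.41, adjusted p = 1.77e-208). Among 22 further NRF2 pathway genes, 10 rose and 2 fell with NB9464 TCM, and the same numbers with NBT3L TCM (all genes 18.0% and 17.3%). The exporter Abcc5 led in both, from 5551 and 4980 in NS to 23840 and 21934 and 23335 and 22493 (2.12 and 2.12). Among 36 further iron and heme genes, 8 rose and 9 fell with NB9464 TCM (all genes 17.2% and 16.9%). Fbxl5, which marks IRP2 for degradation when iron is plentiful, rose most, from 2860 and 2711 to 13646 and 12920 (2.25, adjusted p = 1.64e-180). Alas1, the entry enzyme of heme synthesis, rose most with NBT3L TCM, from 6130 and 6024 to 19803 and 19889 (1.71, adjusted p = 4.61e-241). Hfe, the hemochromatosis protein, fell most there (-1.09, adjusted p = 4.02e-34).

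With R788 alone, 27 of the 137 were called higher and 27 lower, beside 11.6% and 15.0% of all genes. Glutaredoxin, Glrx, which reduces glutathionylated proteins, fell most of the glutathione and thioredoxin genes, from 7027 and 7222 normalized counts in NS to 3027 and 2536 (-1.36, adjusted p = 1.45e-66). It also fell most in NB9464 TCM (-0.62, adjusted p = 1.4e-14) and in NBT3L TCM (-0.72, adjusted p = 1.28e-19), and in each medium the pairs did not overlap. Sesn2, a stress protein that promotes KEAP1 degradation, rose most in each, by 1.09 in the absence of TCM, 0.64 with NB9464 TCM and 0.68 with NBT3L TCM on the log2 scale. In NB9464 TCM, R788 raised 20 and lowered 19 of the 137, beside 5.79% and 8.7% of all genes. The numbers were 12 and 15 in NBT3L TCM, beside 5.33% and 7.24%. Hfe rose with R788 in NB9464 TCM (0.49) and NBT3L TCM (0.52), more than any other of the further iron genes there.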

How the data were processed

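Poly(A) RNA of BMDMs was sequenced in 12 libraries, 2 in each of 6 groups. The authors deposited raw read counts per gene for mm10. The submitters' processing notes name STAR 2.6.1d, Salmon 1.4.0, SAMtools 1.9, Picard 2.26 and MultiQC 1.11, and which program counted, its strand setting and its treatment of multiple positions are not given in the sources used here. The study's methods describe triplicates, whereas the labels give 2 libraries in each group. The 16281 genes that reached 10 counts in 2 or more libraries were fitted in DESeq2 1.42.0 (R 4.3.3) with group as the only term over all 12 libraries, median-of-ratios scaling, Wald tests and unshrunken log2 fold changes, with Benjamini-Hochberg adjustment over all these genes. Calls were made at an adjusted p under 0.05. The fit was tested on simulated data. TPM was computed from the counts and the gene lengths of the table. Alternatives were edgeR 4.0.16 (quasi-likelihood, TMM), TMM size factors in DESeq2, size factors from summed counts per base (TPM scaling, added after the data were seen), no count filter, counts divided by 2, the compared libraries only, and each library left out. Replicate numbers are not shared between groups, so no pairing was fitted.

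Values in every library are given for genes called with a log2 fold change of at least 1 in size in any of 6 pairwise comparisons and for Nfe2l2, Keap1 and Bach1. Other called genes are named with their value, and from further pathway lists the called genes with the largest rise or fall and a mean of at least 100 counts. The 40 genes and all lists were chosen with earlier results of these data known. Gm10252 and Gm5475 overlap Ftl1 and Slc11a2 on the other strand, Gm17494 overlaps Gclm and Mrnip overlaps Sqstm1, so these counts are uncertain to that extent. Promoters came from RefSeq (GRCm38.p6) and UTRs from GENCODE M21. The search for iron-responsive elements was added after the data were seen.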

Additional observations from a re-analysis of the deposited data

Results flagged for a closer look

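In 18 genes the effect of R788 differed by its own test between TCM and no TCM, or between the media (DESeq2, adjusted p under 0.05). Of all genes, 12.5% were called for NB9464 TCM against no TCM, 10.1% for NBT3L TCM against no TCM and 0.706% between the media. Values are the log2 effect of R788 in TCM minus that without TCM, first for NB9464 TCM and then for NBT3L TCM. The effect was more negative in both media for Abcc1 (-0.41 and -0.32), Cat (-0.30 and -0.40), Gclc (-0.56 and -0.42), Gclm (-0.49 and -0.61), Nqo1 (-0.79 and -1.14), Osgin1 (-0.77 and -0.53), Prdx6 (-0.80 and -0.71), Slc40a1 (-1.22 and -1.07), Slc7a11 (-1.68 and -1.91), Sod2 (-0.58 and -0.92) and Sqstm1 (-0.35 and -0.41). It was more positive in both for Gpx1 (0.65 and 0.50), Sod1 (0.45 and 0.39), Tkt (0.21 and 0.26) and Txn1 (0.88 and 0.60). For Pgd it differed in NB9464 TCM (-0.23), and the value for the other medium was not called. For Prdx1 it differed in NBT3L TCM (-0.24), and the value for the other medium was not called. For Tfrc it differed in NB9464 TCM (-0.40), and the value for the other medium was not called. Between the media, the effect differed for Sod2 (0.34, NB9464 TCM minus NBT3L TCM), a call that was lost in edgeR. All differences from no TCM use the same 2 R788 libraries, SJ7 and SJ8, and library SJ8 had the fewest detected genes. Its part in them was not tested beyond leaving it out.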

How the results depend on the processing

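Of 4080 values for the 40 genes under alternatives, 3858 kept their direction and side of the threshold, 146 lost a call, 71 gained one and 5 reversed. The reversed ones were with NBT3L TCM and TPM scaling: Aco1 (-0.10), Ftl1 (-0.19), Gclc (-0.037), Taldo1 (-0.36) and Tkt (-0.066). That scaling was added after the data were seen and moves all genes by construction. It gave 12 lower calls with NB9464 TCM and 11 lower with NBT3L TCM, beside 30.8% and 40.7% of all genes. For R788 it gave 4 higher in NB9464 TCM and 4 lower in NBT3L TCM, beside 3.23% and 6.41%. Between the media it gave 7 higher and 9 lower, beside 9.08% and 2.24%. For the difference of the R788 effect between the media it gave 0 higher, beside 0.141%. Fitting only the libraries compared gave 4 lower calls for R788 against NS and 13 higher for R788 in NBT3L TCM. All genes had 12.4% and 8.99% there. For the difference of the R788 effect between the media this fit gave 2 higher and 1 lower, beside 0.878% and 0.878%. With edgeR, lower calls for R788 in NBT3L TCM were 4, beside 5.64% of all genes. With counts divided by 2, 3 calls were lost and none was gained. Higher calls for R788 in NB9464 TCM were then 8, beside 6.4% of all genes, and lower calls in NBT3L TCM were 5, beside 7.8%. Calls for the difference between the media were 0 with edgeR, with 5 genes at an unadjusted p under 0.05 in DESeq2. The cause was not tested. When each library was left out, higher calls ranged from 26 to 26 and lower calls from 6 to 7 for NB9464 TCM against NS, from 27 to 29 and 3 to 4 for NBT3L TCM, and from 15 to 18 and 6 to 10 for R788. For R788 in NB9464 TCM they ranged from 5 to 7 and 4 to 6, and in NBT3L TCM from 1 to 4 and 4 to 4. Between the media they ranged from 1 to 2 and 11 to 15. For the differences of the R788 effect from no TCM, higher calls ranged from 3 to 7 in each medium and lower calls from 12 to 14 in NB9464 TCM and 10 to 14 in NBT3L TCM. For the difference between the media, higher calls ranged from 0 to 1 and lower calls from 0 to 0. Where a group was left with 1 library, that library was assumed to vary like the others. With 2 libraries in each group the precision is limited, and Mt2, at under 100 counts, has the least.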

Other observations

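Genes of neighboring pathways gave values that no comparison above describes. Among 17 further genes of NADPH metabolism, 6 rose and 2 fell with NB9464 TCM, and 6 rose and 3 fell with NBT3L TCM, beside 17.2% and 16.9% and 18.0% and 17.3% of all genes. Nadk, the kinase that makes NADP from NAD, rose most with NB9464 TCM, from 15539 and 15364 normalized counts in NS to 29029 and 28270 (0.89, adjusted p = 1.22e-84, DESeq2 log2 fold change). Me1, the cytosolic malic enzyme, rose most with NBT3L TCM, from 1358 and 1365 to 2732 and 3079 (1.09, adjusted p = 1.7e-20). Mthfd2, a mitochondrial enzyme of the folate cycle, separated the 2 media, with 10610 and 10294 with NB9464 TCM and 6402 and 6017 with NBT3L TCM (log2 difference 0.75, adjusted p = 5.68e-31). With R788 alone, Idh1, a cytosolic source of NADPH, rose most (0.62, adjusted p = 2.63e-23) and the mitochondrial malic enzyme Me2 fell most (-0.67, adjusted p = 9.1e-14).

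Zinc transporters were measured as well. Of 11 further metal response genes, 3 rose and 1 fell with NB9464 TCM (all genes 17.2% and 16.9%), 5 rose and 1 fell with NBT3L TCM (18.0% and 17.3%), and 5 fell with R788 alone (15.0%). The zinc importer Slc39a10 fell from 1467 and 1238 normalized counts in NS to 362 and 333 with NB9464 TCM (-1.96, adjusted p = 6.49e-25, DESeq2 log2 fold change), and it held 526 and 686 with NBT3L TCM. Slc30a4, which moves zinc into vesicles, fell from 725 and 686 to 329 and 264 with R788 (-1.25, adjusted p = 3.72e-08). Selenop, the secreted selenium carrier, was lower with TCM and higher with R788 in each medium. It held 24188 and 23607 in NS, 36375 and 35660 with R788, 12681 and 12326 with NB9464 TCM and 19019 and 18963 with NB9464 TCM and R788, and the log2 fold change of R788 was 0.59 in the absence of TCM, 0.60 with NB9464 TCM and 0.55 with NBT3L TCM.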
